A study of Mus musculus with 8 samples.

Results

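The genes described here are the 10 lysosomal protease genes Ctss, Ctsc, Ctsh, Ctsb, Ctsd, Ctsl, Ctsz, Ctsa, Ctsk and Lgmn, the cathepsins and legumain, chosen by symbol out of 54854 genes in the count table. The libraries were made from 100 ng of RNA of the entire pituitary, taken at an age of 5 weeks from C57BL/6N mice, and each was labelled a biological replicate; p-values measure the spread between these samples. One group of 4 had received AFS98, an antibody that blocks CD115, the colony stimulating factor 1 receptor, and the other group of 4 a rat IgG2a isotype control, clone 2A3. Replicate 1 was female and replicates 2 to 4 were male, on either antibody. In both groups the dam was given 3 mg at embryonic day 6.5 and the offspring 100 µg on postnatal day 2, 150 µg on day 14 and 200 µg at 4 weeks, with collection 1 week later. The number of dams and litters is not given, so litter and treatment cannot be told apart.

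Cathepsins are proteases that work mainly in the acid interior of endosomes and lysosomes; they are made as inactive precursors and activated by removal of a propeptide. Most are papain-like cysteine proteases, whereas cathepsin D is an aspartic protease, cathepsin A a serine carboxypeptidase and legumain a cysteine protease that cuts after asparagine. Some, such as cathepsins B, D and L, serve protein turnover in nearly all cells; others, such as cathepsin S, are most abundant in macrophages, dendritic cells and B cells, where they process antigens and the invariant chain of MHC class II.

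Total counts per library ran from 23289819 to 36218096. The 16 macrophage markers listed for comparison, among them Csf1r, Adgre1 and the C1q chains, all fell (edgeR quasi-likelihood test, adjusted p below 0.05, median log2 fold change -2.75), and their summed level was 18.3 to 61.3 CPM (counts scaled to a library total of 1000000) with anti-CD115 against 238 to 331 CPM in isotype controls. Single markers no longer passed without anti-CD115 replicate 4 (C1qc and Cx3cr1, adjusted p = 0.0643 and 0.0539), on unfiltered log2(FPKM + 1) (C1qa, C1qb, C1qc and Mrc1, 0.0536 to 0.120) and on log2(TPM + 1) (Ptprc, 0.0537). Transcripts of the 7 pituitary hormones made up 206409 to 297392 CPM with anti-CD115 and 234647 to 293566 CPM in controls. None of the 4 endothelial markers passed, but their summed level did not overlap, at 208 to 234 CPM with anti-CD115 and 134 to 207 CPM in controls; the part of this in the results was not tested. None of the tested monocyte and neutrophil, lymphocyte or dendritic cell markers passed, and their sums overlapped between groups. Isotype control replicate 3 stood apart in bone and connective tissue genes: Bglap was at 2.31 CPM there and at 0.00 to 0.55 CPM elsewhere among controls, Ibsp at 1.69 CPM against 0.00 to 0.25 CPM, and Col1a1 at 243 CPM against 85.5 to 105 CPM. It was also the highest control in summed monocyte and neutrophil markers, at 15.9 CPM against 4.54 to 7.49 CPM in the other controls, and in summed lymphocyte markers, at 16.03 CPM against 6.93 to 11.4 CPM. The values of Ctss, Ctsc, Ctsh, Ctsb, Ctsz, Ctsl, Ctsd, Ctsa and Ctsk are also given without it.

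After anti-CD115, 3 of the 10 protease transcripts fell: Ctss lost 85.9% of its level, Ctsc 52.0% and Ctsh 46.4% (edgeR, adjusted p below 0.05 over all genes). Falls of that standing were found for 0.829% of the 17723 genes tested, and rises, of which the 10 had 0, for 0.0395%. Unadjusted, 4 of the 10 had a p below 0.05 with a lower level, as had 5.77% of all genes, and a fitted fall of more than 2-fold was found for Ctss and Ctsc, and for 1.56% of all genes. The other 7 did not pass, with fitted losses of 18.03% for Lgmn and 2.71% to 10.9% for Ctsz, Ctsa, Ctsd, Ctsl, Ctsb and Ctsk. All 10 had a fitted log2 fold change below 0, as had 49.1% of all genes tested, and the median of the 10 was -0.16 against 0.0041 over all genes. In 5 of the 10, Ctss, Ctsc, Ctsh, Lgmn and Ctsa, every anti-CD115 library lay below every control library, a pattern seen for 3.31% of genes tested. All 10 passed the filter on low counts.

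**Figure D1:**
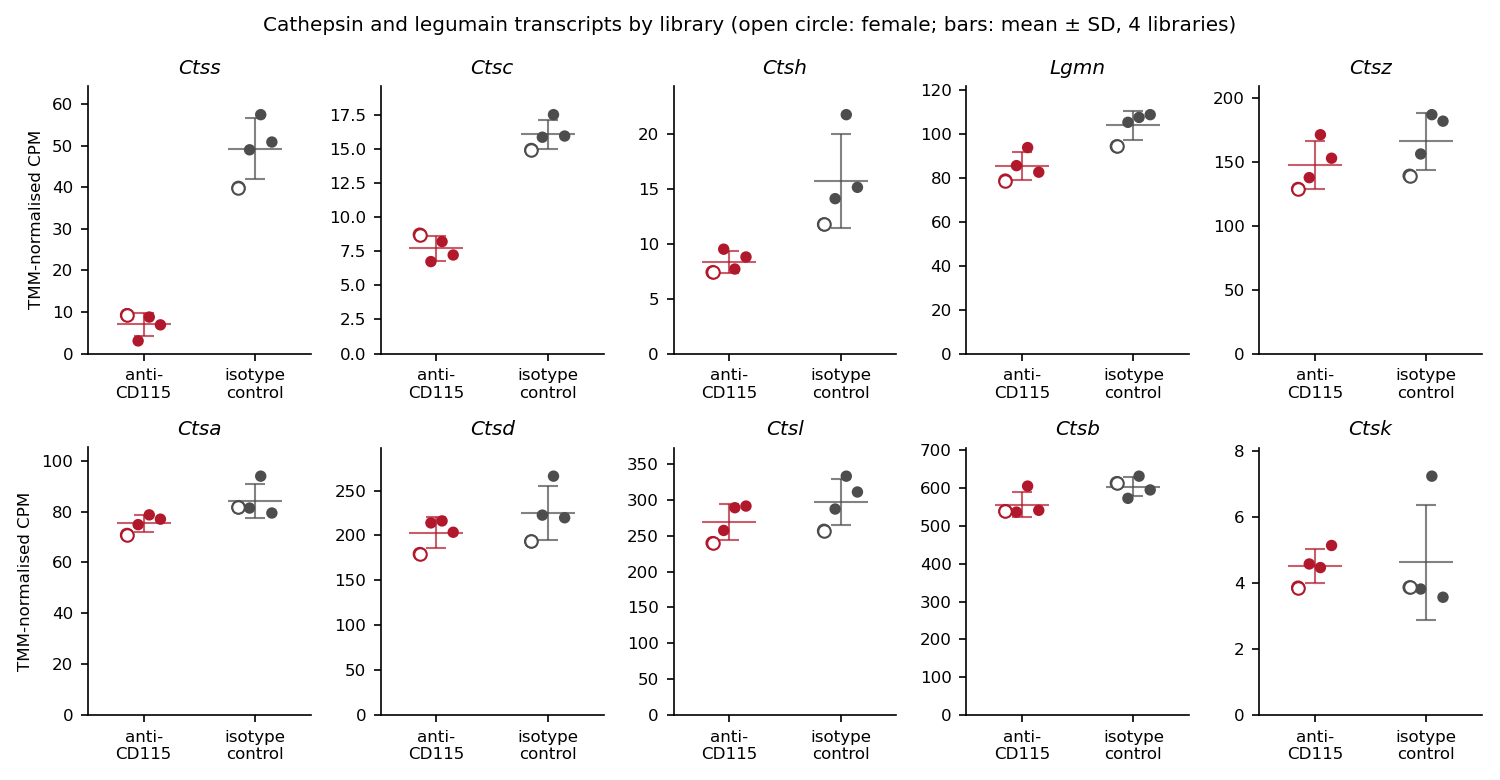
Each panel shows 1 gene, with normalised CPM on a linear axis from 0, the 4 anti-CD115 libraries on the left and the 4 isotype control libraries on the right; open circles are females, bars the mean ± SD. Ctss, Ctsc, Ctsh, Lgmn and Ctsa show no overlap between groups, and the Ctsk control at 7.23 CPM is isotype control replicate 3.

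Cathepsin S, encoded by Ctss (ENSMUSG00000038642, chromosome 3, 95526786 to 95556403, plus strand, GRCm38), is a cysteine endopeptidase that stays active at neutral pH and trims the invariant chain in antigen-presenting cells. It had 9.26, 3.04, 8.78 and 6.90 CPM in anti-CD115 replicates 1 to 4, from 85 to 299 counts, against 39.9, 49.1, 57.5 and 50.9 CPM in isotype control replicates 1 to 4, from 950 to 1941 counts. The highest anti-CD115 library was thus far below the lowest control, and within the anti-CD115 group replicate 2 was the lowest. The fall was 7.07-fold (log2 fold change -2.82, SE 0.27, edgeR adjusted p = 0.000945), with a 95% interval of the share lost from 78.5% to 90.7%. Without isotype control replicate 3 the log2 fold change was -2.73 (adjusted p = 0.00324). In a whole gland, fewer cells of a type and less RNA per cell cannot be told apart.

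The Ctss promoter is shown because the gene lost the largest share of the 10, beside those of Ctsc, which also fell, of Ctsk, the neighbour of Ctss on chromosome 3, and of Ctsd, an abundant member that did not pass. Sequences run 5′ to 3′ on the strand of the gene, from 250 bases before to 50 after its start, and are from RefSeq on GRCm38.p6. Capitals mark GAGGAAG, a core motif of ETS factors such as PU.1 of the myeloid lineage, and CACGTG, an E-box bound by factors such as TFEB, which controls lysosomal genes. They also mark an interferon response (ISRE) type element, 2 copies of GAAA with 2 bases between them, which was added after the Ctss sequence had been read. All were searched on both strands, so GAGGAAG can appear as CTTCCTC, and no matches overlapped.
Ctss, chr3:95526536-95526835, plus strand: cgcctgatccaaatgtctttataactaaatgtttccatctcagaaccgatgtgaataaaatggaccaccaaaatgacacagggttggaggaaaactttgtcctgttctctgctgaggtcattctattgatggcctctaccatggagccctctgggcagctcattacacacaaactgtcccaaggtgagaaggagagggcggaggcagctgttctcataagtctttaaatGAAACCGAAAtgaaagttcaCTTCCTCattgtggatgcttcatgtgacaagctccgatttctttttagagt
Ctsc, chr7:88277835-88278134, plus strand: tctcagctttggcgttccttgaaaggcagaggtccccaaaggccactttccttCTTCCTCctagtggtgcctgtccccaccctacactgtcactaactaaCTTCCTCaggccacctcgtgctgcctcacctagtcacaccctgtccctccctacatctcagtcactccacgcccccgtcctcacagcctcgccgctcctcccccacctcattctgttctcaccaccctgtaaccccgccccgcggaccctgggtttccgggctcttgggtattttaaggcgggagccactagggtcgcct
Ctsk, chr3:95498960-95499259, plus strand: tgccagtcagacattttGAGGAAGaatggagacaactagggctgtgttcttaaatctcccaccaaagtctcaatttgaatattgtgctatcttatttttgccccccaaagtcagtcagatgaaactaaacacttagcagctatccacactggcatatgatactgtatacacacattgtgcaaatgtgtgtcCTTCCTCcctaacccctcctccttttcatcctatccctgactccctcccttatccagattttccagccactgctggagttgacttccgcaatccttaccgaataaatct
Ctsd, chr7:142387778-142388077, minus strand: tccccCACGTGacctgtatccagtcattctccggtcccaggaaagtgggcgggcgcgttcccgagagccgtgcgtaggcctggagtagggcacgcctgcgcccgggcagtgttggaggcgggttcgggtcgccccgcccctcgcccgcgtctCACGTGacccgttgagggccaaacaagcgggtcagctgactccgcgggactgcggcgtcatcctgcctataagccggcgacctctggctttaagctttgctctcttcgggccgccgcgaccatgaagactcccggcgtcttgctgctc

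Promoter windows were matched for 8 of the 10 genes, 10 windows in all, with those of Ctsh and Ctsb not analysed here and a second start for Ctsa and Lgmn. The ETS core was in the windows of Ctss, Ctsc and Ctsk, and in 13.6% of all 32851 promoter windows. The E-box was in those of Ctsd and Ctsl and in 1 of the 2 windows each of Ctsa and Lgmn, and in 7.15% of all windows. The ISRE-type element was in that of Ctss alone among the 10 windows, and in 3.44% of all windows. The windows with the ETS core thus belonged to Ctss and Ctsc, which fell, and to Ctsk, which did not pass, with Ctsh not searched; those with the E-box belonged to 4 genes that did not pass. These matches describe the letters of the windows and are not binding sites.

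Cathepsin C, also called dipeptidyl peptidase 1 (Ctsc, ENSMUSG00000030560, chromosome 7, 88278085 to 88310888), removes dipeptides from the ends of proteins and activates serine proteases of granules. It had 8.73, 6.75, 8.22 and 7.23 CPM in anti-CD115 replicates 1 to 4, against 14.96, 15.9, 17.5 and 15.97 CPM in the isotype controls in the same order. No values overlapped, and the spread within each group was small beside the gap between them. The log2 fold change was -1.06 (SE 0.12, edgeR adjusted p = 0.00217), a loss of 52.0% with a 95% interval from 42.2% to 60.1%. Without isotype control replicate 3 it was -1.01 (adjusted p = 0.00627).

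Cathepsin H (Ctsh, ENSMUSG00000032359, chromosome 9, 90054152 to 90076089) is mainly an aminopeptidase. It had 7.40, 9.501, 7.69 and 8.79 CPM in anti-CD115 replicates 1 to 4, against 11.8, 14.1, 21.7 and 15.1 CPM in isotype control replicates 1 to 4. The groups did not overlap, though the control female, at 11.8 CPM, stood nearer to the anti-CD115 values than the control males did. The log2 fold change was -0.90 (SE 0.16, edgeR adjusted p = 0.0249), a loss of 46.4% with a 95% interval from 31.8% to 57.9%. This call was close to the threshold and ended without any 1 of the 4 anti-CD115 libraries (adjusted p from 0.0519 to 0.0974) or without isotype control replicate 1 (0.0566). It also ended with males only (0.0535), without a sex term (0.0504), with a replicate block (0.0751), with log2(FPKM + 1) filtered (0.0644) or unfiltered (0.222) and with log2(TPM + 1) (0.148). In those 6 fits falls were called for 0.620%, 0.762%, 0.643%, 0.756%, 0.206% and 0.750% of all genes, in the same order. Without anti-CD115 replicates 1 to 4 the shares were 0.652%, 0.561%, 0.563% and 0.484%, and without isotype control replicate 1 it was 0.601%. Ctsh still passed with DESeq2 (adjusted p = 2.21e-05), which called falls for 1.22% of genes tested. It also passed with RLE factors, without a low-count filter, with a stricter filter and on log2(FPKM + 0.1). In those fits 0.824%, 1.10%, 0.736% and 0.807% of all genes were called, in the same order. Without isotype control replicate 2, 3 or 4 it passed as well, with 0.576%, 0.559% and 0.608% of all genes called. Without isotype control replicate 3, its highest library and the one with the highest sums of leukocyte and bone markers among controls, the log2 fold change was -0.73 (0.0286), a loss of 39.8%; the part of those markers was not tested.

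Legumain (Lgmn, ENSMUSG00000021190, chromosome 12, 102394084 to 102439813) cuts after asparagine and helps to mature other cathepsins. It had 78.7, 85.5, 93.7 and 82.5 CPM with anti-CD115 and 94.3, 105, 107 and 109 CPM in controls, replicates 1 to 4 in each case. The groups did not overlap, by a narrow margin between anti-CD115 replicate 3 and control replicate 1. The log2 fold change was -0.29 (SE 0.07), a loss of 18.03% with a 95% interval from 8.88% to 26.3%. Its unadjusted p was 0.00174, but it did not pass in edgeR over all genes (adjusted p = 0.137). DESeq2 called it (adjusted p = 0.0318), as it called falls for 1.22% of genes tested.

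Cathepsins B and Z are carboxypeptidases in part or whole, B being also an endopeptidase, and neither passed. Ctsb (chromosome 14, 63122462 to 63145923) had the most counts of the 10, with 539, 537, 605 and 541 CPM in anti-CD115 replicates 1 to 4 against 613, 573, 632 and 595 CPM in the controls. The groups overlapped through anti-CD115 replicate 3, and the fitted loss was 7.91% with an interval from -2.90% to 17.6%. Ctsz (chromosome 2, 174427493 to 174439039) had 129, 138, 171 and 153 CPM with anti-CD115 and 139, 156, 187 and 182 CPM in controls. Its groups overlapped too, with a fitted loss of 10.9% and an interval from -2.21% to 22.3%. In both genes the lower bound lay below 0, so neither a small gain nor a larger loss than the fitted one could be told apart in these libraries. Without isotype control replicate 3, the highest library of both genes, the fitted loss was 6.41% for Ctsb and 8.48% for Ctsz.

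Cathepsin L (Ctsl, chromosome 13, 64359337 to 64370890), the endopeptidase that cleaves the invariant chain in thymic epithelium, had 239.7, 257, 289 and 291 CPM with anti-CD115 and 257, 287, 333 and 311 CPM in controls. Cathepsin D (Ctsd, chromosome 7, 142375911 to 142388038), the main aspartic protease of lysosomes, had 179, 214, 216 and 204 CPM with anti-CD115 and 193, 223, 266 and 219.7 CPM in controls. In both genes the groups overlapped, and the female was the lowest library of its group. The fitted losses were 9.22% for Ctsl, with an interval from -2.01% to 19.2%, and 9.73% for Ctsd, with one from -1.93% to 20.1%. Without isotype control replicate 3, the highest library of both genes, the fitted loss was 6.65% for Ctsl and 5.30% for Ctsd.

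Cathepsin A (Ctsa, chromosome 2, 164832873 to 164841032) is also the protective protein that stabilises neuraminidase 1 and beta-galactosidase. It had 70.8, 74.9, 78.7 and 77.0 CPM with anti-CD115 and 81.7, 81.4, 93.9 and 79.4 CPM in controls. The groups did not overlap, but the closest libraries lay within 1 CPM of each other, and the fitted loss of 10.4% had an interval from -0.52% to 20.2% (edgeR adjusted p = 0.512). Without isotype control replicate 3, its highest library, it was 7.08%. With genes on the other strand, Ctsa shares 495 exon bases (Pltp) and 324 (Neurl2), Ctsb 774 (Fdft1), Ctsz 10 (Nelfcd) and Ctsl 1742 (Gm47123). On the same strand Ctsd shares 808 with Gm49369 and Ctsl 395 with the pseudogene Gm49230. Gm47123, Gm49369 and Gm49230 had 0 counts. Whether counting used the strand is not given in the sources used here. Fdft1 stood at 100.3 CPM with anti-CD115 and 95.4 CPM in controls, Pltp at 13.6 and 11.9 CPM, and Nelfcd at 102 and 99.995 CPM.

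Cathepsin K (Ctsk, chromosome 3, 95499256 to 95509362), the collagen-degrading protease best known from osteoclasts, lies 17423 bases before Ctss on the same strand, with no annotated gene in between. It had 3.86, 4.57, 4.46 and 5.13 CPM with anti-CD115 and 3.86, 3.81, 7.23 and 3.56 CPM in controls. Apart from control replicate 3, the highest of all 8 libraries, every control lay at or near the lowest anti-CD115 library. The fitted loss was 2.71% with an interval from -37.6% to 31.2% (log2 -0.04, edgeR adjusted p = 0.974). Without control replicate 3 the log2 fold change turned to 0.25 (adjusted p = 0.617). Summed over 8 osteoclast and bone markers, that library reached 7.29 CPM, against 1.19 to 1.97 CPM in anti-CD115 libraries and 1.85 to 2.34 CPM in the other controls. Summed fibroblast markers reached 946 CPM there, against 561 to 755 CPM with anti-CD115 and 566 to 670.04 CPM in the other controls. Of these 8 markers, Acp5 and Mmp9 were tested and neither passed. Acp5 was at 0.28, 0.86, 0.50 and 0.72 CPM with anti-CD115 and 0.84, 0.98, 2.40 and 1.503 CPM in controls (log2 -1.31, edgeR adjusted p = 0.176). The osteoclast fusion genes Dcstamp and Ocstamp had at most 6 and 1 counts in any library, Calcr 16 and Oscar 4. The part of these markers in the Ctsk value was not tested.

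**Figure D2:**
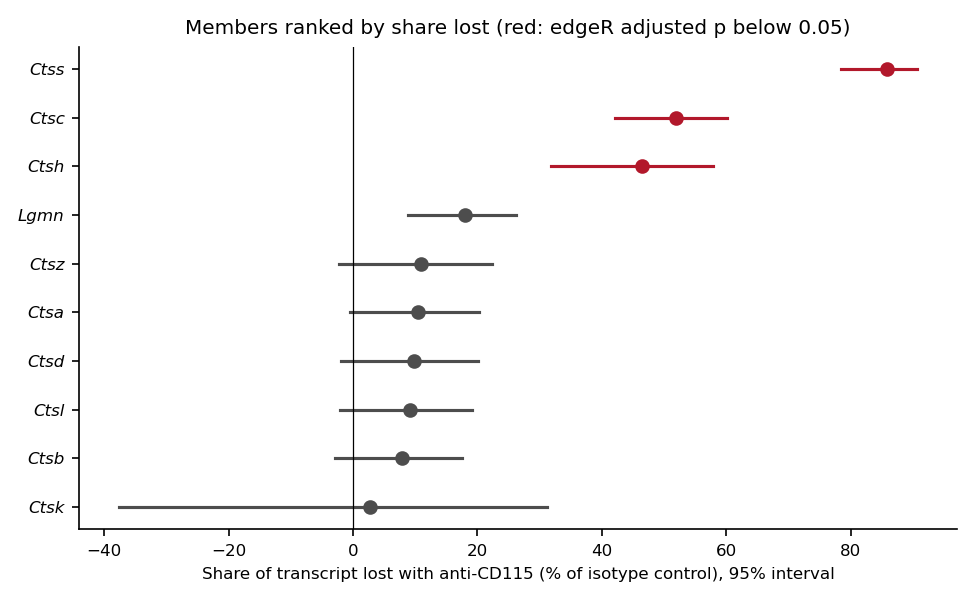
The horizontal axis gives the share of each transcript lost with anti-CD115, in percent of the isotype control level, with points for the fitted value and lines for the 95% interval; red marks edgeR adjusted p below 0.05. Ctss, Ctsc and Ctsh stand at 85.9%, 52.0% and 46.4%, the interval of Lgmn lies above 0, and those of the other 6 include 0.

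Ranked by share lost, the order was Ctss, Ctsc, Ctsh, Lgmn, Ctsz, Ctsa, Ctsd, Ctsl, Ctsb and Ctsk. Under 19 alternative settings, which included leaving out each library, Ctss stayed the first, Ctsc the second, Ctsh the third and Lgmn the fourth. The lower places changed hands, with Ctsz and Ctsa between rank 5 and 8 and Ctsk between 7 and 10. As a description with no test, since the order itself set the pairs, the log2 ratio of the CPM of Ctss to that of Ctsc was -0.26 ± 0.60 with anti-CD115 and 1.61 ± 0.13 in controls (SD, n = 4 each). That of Ctsh to Lgmn was -3.35 ± 0.20 with anti-CD115 and -2.76 ± 0.31 in controls (SD, n = 4 each). The groups did not overlap in either ratio, but overlapped in the ratio of Ctsc to Ctsh (-0.11 ± 0.34 with anti-CD115 and 0.07 ± 0.28 in controls) and in those of the other neighbours.

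The 3 genes that fell are set here beside the macrophage markers, library by library. These levels hold the same falls by which the 3 were picked, and the markers were chosen with earlier results known. How near each gene lies to the markers is thus no further result. Expressed in percent of the control mean, the summed CPM of the 16 markers was 18.9%, 6.44%, 21.6% and 12.4% in anti-CD115 replicates 1 to 4. Ctss stood at 18.8%, 6.15%, 17.8% and 13.98% in the same libraries, so its order nearly matched that of the markers, with replicate 2 the lowest for both. The ratio of Ctss to the summed markers was 0.143 to 0.196 in anti-CD115 libraries and 0.165 to 0.190 in controls. Ctsc remained at 54.3%, 42.0%, 51.1% and 45.0%, and was likewise lowest in replicate 2. Ctsh remained at 47.2%, 60.6%, 49.0% and 56.0%, and was highest in replicate 2, the library with the fewest macrophage transcripts. These are values of 4 libraries, and no test of their order was made.

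**Figure D3:**
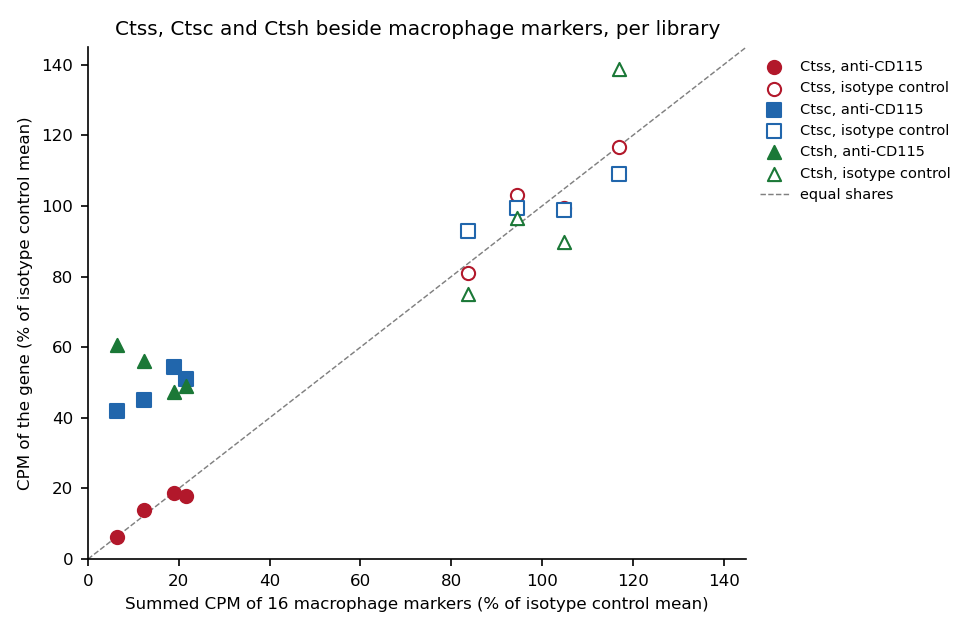
Each point is 1 library; the horizontal axis gives the summed CPM of 16 macrophage markers and the vertical axis the CPM of Ctss, Ctsc or Ctsh, both in percent of the isotype control mean, with filled symbols for anti-CD115, open symbols for isotype controls and a dashed line for equal percentages. Anti-CD115 libraries lie near the dashed line for Ctss (6.15% to 18.8%) and well above it for Ctsc (42.0% to 54.3%) and Ctsh (47.2% to 60.6%).

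Since counts cannot be compared between genes of different length, levels were set side by side as deposited FPKM (fragments per kilobase of gene, scaled to library size). The annotated lengths ran from 1358 bases for Ctss to 6489 for Ctsl, and the orders and shares given in FPKM depend on them. With anti-CD115 the 10 genes together reached 384 ± 29.8 FPKM, against 461 ± 41.8 FPKM in controls (SD, n = 4 each); the anti-CD115 libraries ran from 351 to 422 FPKM and the controls from 412 to 511 FPKM, so the sums overlapped. The change of the means was -16.6%, and -9.65% when FPKM were rescaled to TPM, which gives every library the same sum, a scale on which the median of all genes tested was itself at a log2 change of 0.12. In controls the order of level was Ctsz (114 FPKM), Ctsb (98.8), Ctsd (95.02), Ctsl (45.4), Lgmn (44.3), Ctss (36.02), Ctsa (17.7), Ctsh (3.45), Ctsk (3.02) and Ctsc (2.75). Neighbours whose control values overlapped were Ctsz and Ctsb, Ctsb and Ctsd, Ctsl and Lgmn, Lgmn and Ctss, Ctsh and Ctsk, and Ctsk and Ctsc. Without isotype control replicate 3 the order turned for Ctsk (2.46 FPKM) and Ctsc (2.67), and for Ctsl (43.7) and Lgmn (43.96). With anti-CD115 Ctss had 5.12 ± 2.07 FPKM, against 36.02 ± 5.16 FPKM in controls (SD, n = 4 each), and lay below Ctsa in 4 of 4 anti-CD115 libraries and above it in 4 of 4 controls.

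**Figure D4:**
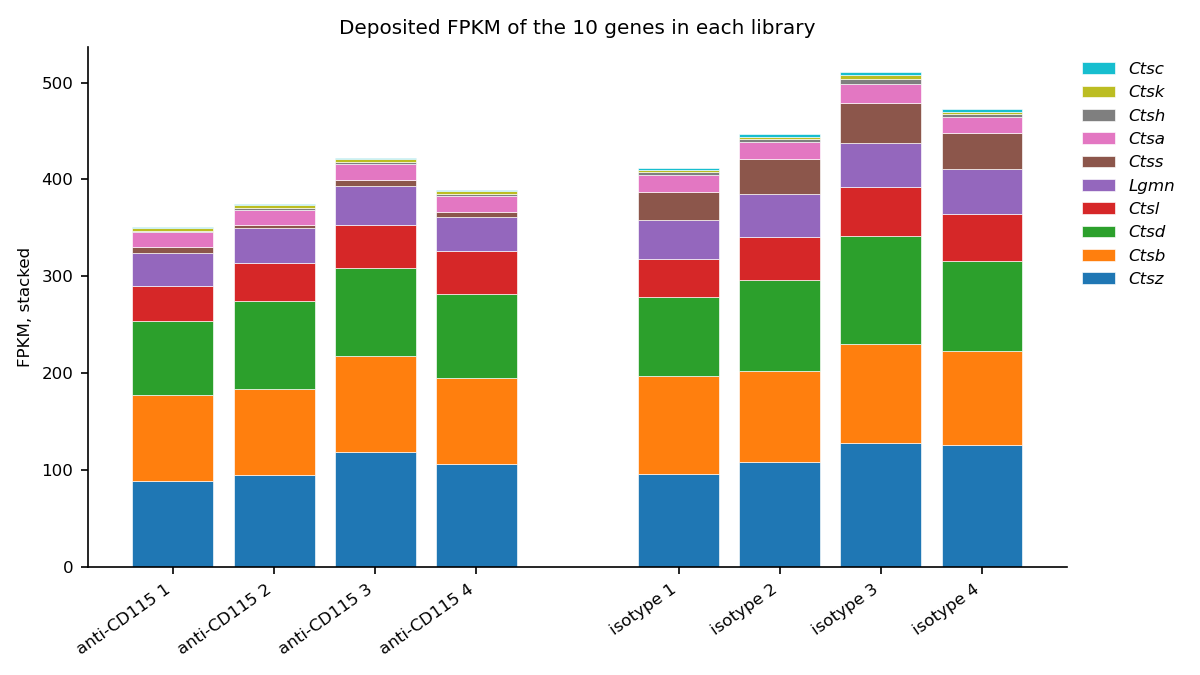
Bars show the deposited FPKM of the 10 genes stacked for each library on a linear axis from 0, anti-CD115 on the left and isotype controls on the right. The brown Ctss segment is 2.23 to 6.78 FPKM in anti-CD115 libraries and 29.2 to 41.7 FPKM in controls, while Ctsz, Ctsb and Ctsd fill most of every bar.

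By share of the summed FPKM, Ctss made up 1.34% ± 0.56 with anti-CD115 and 7.79% ± 0.48 in controls (SD, n = 4 each). Ctsz held 26.5% ± 1.31 with anti-CD115 and 24.7% ± 1.39 in controls, and Ctsb 23.8% ± 0.99 and 21.6% ± 1.95 (SD, n = 4 each). Ctsc and Ctsh, although they fell, made up 0.35% and 0.48% with anti-CD115 and 0.60% and 0.74% in controls. Of the 76.4 FPKM by which the means of the sum differed, 30.9 FPKM were Ctss, or 40.4%. Ctsz accounted for 12.3 FPKM, Ctsd for 8.996, Lgmn for 7.89 and Ctsb for 7.48, differences that did not pass the test gene by gene. The split depended on the scale: as TPM, Ctss held 68.4% of the summed loss, Ctsz 8.48%, Ctsd 3.66% and Ctsb 0.50%. Ctsc and Ctsh together gave little of it, at 1.42 and 1.61 FPKM.

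No sex by treatment interaction was found for the 10 genes with edgeR: 0 passed after adjustment, where 0.0395% of all genes were called in either direction. With DESeq2 also 0 of the 10 passed, but its share over all genes is not given here, so that 0 cannot be judged. In edgeR, 0 of them had an unadjusted p below 0.05, against 3.20% of all genes. Among the 10, Ctss had the smallest unadjusted p for the interaction in the edgeR fit (0.113), and its log2 ratio was -2.11 in the female pair and -3.07 in the males. Since each group had 1 female, the fit took the spread of males to hold for both sexes.

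For each of the 3 genes that fell, the 5 genes with the nearest profile over the 8 libraries were found by the root mean square distance of centred log2(CPM + 0.5), among 15478 genes. Centring was over both groups, so the distance includes the fall by which the 3 genes were picked. Genes with a like fall come out near, and the median distance depends on the size of the fall. Ctss was nearest to Adgre1, which encodes the macrophage protein F4/80 (distance 0.20), then Ms4a7 (0.26), Csf1r (0.28), C1qb (0.28) and Pld4, an endolysosomal nuclease (0.29), where the median gene lay at 1.49. Ctsc was nearest to Slc15a3, an endolysosomal transporter (0.14), Unc93b1, which escorts nucleic acid sensing Toll-like receptors to endosomes (0.14), Evi2a (0.14), Cd180 (0.14) and A230051N06Rik (0.14), with a median of 0.55. Ctsh was nearest to Lacc1 (0.13), the interferon regulatory factor Irf7 (0.16), the TNF receptor Tnfrsf1b (0.17), the acid phosphatase Acp5 (0.17) and Cebpa, a myeloid transcription factor (0.18), with a median of 0.52. Of these, Irf7 and Tnfrsf1b passed, while Lacc1, Acp5 and Cebpa did not (edgeR adjusted p = 0.101, 0.176 and 0.168). The nearest genes did not share one fold change: log2 fold changes ran from -3.33 (Adgre1) to -2.82 (Pld4) beside Ctss, from -1.91 (Evi2a) to -0.89 (Unc93b1) beside Ctsc and from -1.31 (Acp5) to -0.89 (Tnfrsf1b) beside Ctsh. The added 0.5 CPM shrinks the differences of genes with low counts.

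Other cathepsin genes were few. Of 14 listed, Ctsf and Ctso passed the filter and neither changed by the test: Ctso was at 59.3 ± 3.33 CPM with anti-CD115 and 55.8 ± 1.91 CPM in controls (SD, n = 4 each; log2 0.09, edgeR adjusted p = 0.710). Ctse, Ctsg and Ctsw had at most 25 counts in any library, and the other 9, several of them known from the mouse placenta, had no count in any. With no count, 3 counts set the limit, worth 0.0828 to 0.129 CPM in a library by its total counts, without normalisation. Of 6 other lysosomal peptidases 0 passed in edgeR and 1 had an unadjusted p below 0.05, Scpep1, a serine carboxypeptidase, at 147 ± 11.7 CPM with anti-CD115 and 129 ± 5.95 CPM in controls (SD, n = 4 each; log2 0.19, edgeR adjusted p = 0.401).

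Among the inhibitors, 4 of 11 were tested, and 0 passed in edgeR or had an unadjusted p below 0.05. Cystatin C (Cst3), the main secreted inhibitor of cysteine cathepsins, was at 459, 456, 463 and 397 CPM in anti-CD115 replicates 1 to 4 and at 498, 484, 545 and 463 CPM in controls. The groups did not overlap, but their closest libraries lay within 1 CPM of each other, and the log2 fold change was -0.17 (SE 0.08, edgeR adjusted p = 0.523). Per annotated gene length, Cst3 stood at 349 FPKM with anti-CD115 and 389.7 FPKM in controls, above every one of the 10 proteases. Without division by length Ctsb was higher, at a mean of 556 CPM with anti-CD115 and 603 CPM in controls. The means of Cst3 were 444 and 498 CPM, in the same order. Stefin B (Cstb) had a log2 fold change of -0.19, Cst6 of 0.05 and Ctla2a, a relative of the cathepsin propeptide, of 0.17. Cst7, the cystatin F of leukocytes, had at most 12 counts and was not tested.

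The machinery that delivers and acidifies did not pass either. Of 9 genes for mannose 6-phosphate tagging and delivery, 0 fell and 0 rose in edgeR (median log2 fold change 0.01), and Gnptab, a subunit of the tagging enzyme, had the smallest p (log2 0.16, adjusted p = 0.524). Of 7 tested subunits of the proton pump, 0 fell and 0 rose (median -0.02), with Atp6v0c at -0.11 (adjusted p = 0.603). Of 3 tested MiT/TFE factors, which switch on lysosomal genes, 0 fell and 0 rose (median -0.07), Mitf being at 0.34 (adjusted p = 0.439). The cathepsin A partners Neu1 and Glb1 stood at -0.02 and -0.11 (adjusted p for Glb1 0.715). The only one of these with an unadjusted p below 0.05 was Mitf (0.0329), and none of Gnptab, Atp6v0c, Mitf and Glb1 passed in the other settings run.

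**Figure D5:**
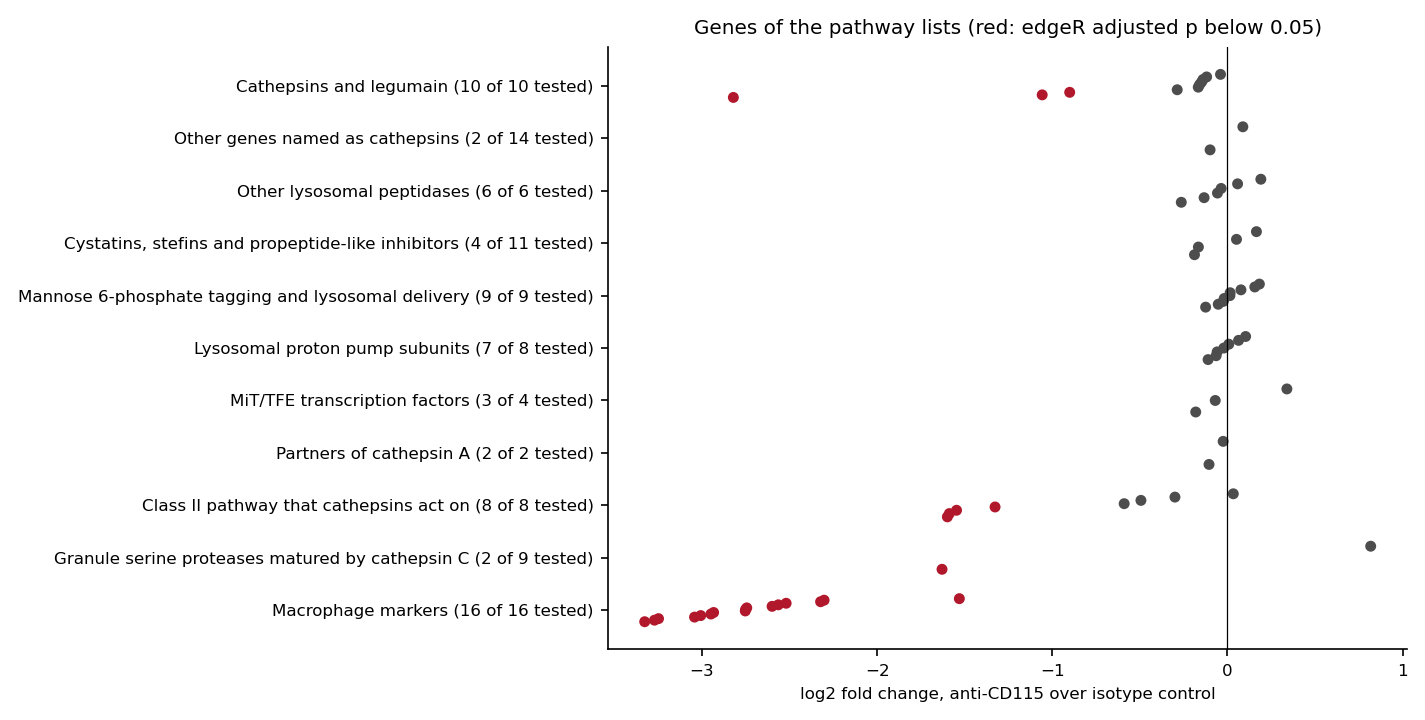
The horizontal axis gives the log2 fold change, anti-CD115 over isotype control, of each gene tested, by list; red marks edgeR adjusted p below 0.05. The macrophage markers lie between -3.33 and -1.53, Ctss alone of the cathepsins lies in that range, and the delivery and proton pump lists lie within -0.12 to 0.18.

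Of the partner lists, 2 held genes that fell. In the class II pathway, on which cathepsins S and L act, 4 of 8 fell, none rose and 4 did not pass, with a list median of -0.96: Cd74, the invariant chain itself, was at 58.1 ± 7.19 CPM with anti-CD115 and 146 ± 22.2 CPM in controls (SD, n = 4 each; log2 -1.33, edgeR adjusted p = 0.000729). H2-Aa, H2-Ab1 and H2-Eb1 had -1.60, -1.55 and -1.59, fitted values nearer to 0 than that of Ctss, a difference that was not tested. Of the 4 that did not pass, H2-DMa had -0.59, Ciita -0.49 and H2-DMb1 -0.30 (edgeR adjusted p = 0.255, 0.419 and 0.666). The fourth, Ifi30, the thiol reductase that unfolds antigens beside the cathepsins, had 0.03. Of 9 granule serine protease genes listed beside cathepsin C, 2 were tested. Gzma fell, at 0.28 ± 0.04 CPM with anti-CD115 and 0.88 ± 0.24 CPM in controls (SD, n = 4 each; log2 -1.63, edgeR adjusted p = 0.0417), a call that ended in 7 of 8 fits that left out a library (adjusted p from 0.104 to 0.218; 0.0462 without isotype control replicate 2) and with males only (0.205), a replicate block (0.0770) or unfiltered FPKM (0.122). Tpsb2, a mast cell tryptase, had 0.82 (adjusted p = 0.739).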

How the data were processed

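Libraries were made from 100 ng of total RNA; per the labels the kit selected mRNA and kept its strand. Per the submitters' processing notes, GRCm38 was the build, and featureCounts 1.5.0-p3, HISAT2 2.0.5 and StringTie 1.3.3b were the tools; their roles and settings are not given in the sources used here. The authors deposited raw whole-number counts per gene, and FPKM that divide these by gene length and library size. Depth was 23289819 to 36218096 counts per library, so 3 counts were worth 0.0828 to 0.129 CPM by total counts, before the TMM normalisation used for the other CPM. Such floors cover counting error only.

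Genes were kept with filterByExpr and tested on all 8 libraries with the quasi-likelihood test of edgeR 4.0.16 (R 4.3.3), with TMM factors, terms for sex and treatment, Benjamini-Hochberg adjustment over all 17723 genes tested and a threshold of 0.05. Standard errors and 95% intervals come from the F statistic. CPM are TMM-normalised, and SDs are over 4 libraries. Alternatives were DESeq2 1.42.0, limma 3.58.1 on log2(FPKM + 1), log2(FPKM + 0.1) and log2(TPM + 1), RLE factors, other filters and designs, and leaving out each library.

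All 10 members are named. Of the pathway lists and the macrophage markers, every gene past the threshold, or else the one with the smallest p, was to be named. The macrophage markers that passed and are not named above were Aif1, Laptm5, Spi1, Mpeg1, Ly86, Cd68, Fcer1g and Tyrobp. Cst6, Cstb, Ctla2a, Ifi30, H2-DMa, Ciita, H2-DMb1, Tpsb2, Neu1, Ctsf, Ccr2, Trbc2 and the untested genes named were added after their values were seen. So were the bone and collagen genes. Members and lists were chosen with earlier results of these data known, so planned permutation tests of the summed FPKM and of ratios between neighbouring genes are not given, and sums, shares and ratios are descriptions.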

Additional observations from a re-analysis of the deposited data

Results flagged for a closer look

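Of 20 groups of 4 libraries examined, 1 per gene and treatment, 3 held a library far from the other three by the gap to its nearest neighbour relative to the range; chance alone gives about 1 in 20. Ctsk in isotype control replicate 3 was at 7.23 CPM, against 3.56 to 3.86 CPM in the other controls. Ctsa in the same library was at 93.9 CPM, against 79.4 to 81.7 CPM. Ctsb in anti-CD115 replicate 3 was at 605 CPM, against 537 to 541 CPM in the other anti-CD115 libraries.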

How the results depend on the processing

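Of 1289 values set against an alternative, 1187 kept their direction and their side of the threshold, or moved by less than the spread. The calls of Ctss and Ctsc held in every alternative run. The share lost by Ctsh no longer passed without a sex term (46.9%), with a replicate block (45.8%), with males only (49.0%), with log2(FPKM + 1) filtered or not (35.3% each) and with log2(TPM + 1) (35.6%), a scale added after the data were seen; leaving out libraries gave 39.8% to 49.1%. Lgmn passed with DESeq2 (17.9%). The share lost by Ctsk turned below 0 with a replicate block (-0.74%, log2 0.011), log2(FPKM + 1) filtered or not (-0.80%, 0.011), log2(FPKM + 0.1) (-1.75%, 0.025) and log2(TPM + 1) (-8.44%, 0.12), and ranged from -19.0% to 11.0% (log2 -0.17 to 0.25) when libraries were left out. On log2(TPM + 1), Atp6v0c and Glb1 turned to 0.0081 and 0.013. The cause was not tested, except that TPM moved the median of all genes by 0.12. Small neighbour ratios crossed 0 without single libraries: Ctsz over Ctsa (-0.0798 to 0.0621), Ctsa over Ctsd (-0.0419 to 0.0452; males only 0.0156), Ctsd over Ctsl (-0.0510 to 0.0327) and Ctsl over Ctsb (-0.0953 to 0.0210). Genes that fell numbered 147 in the main fit, of 17723 tested, and 87 to 117 without single libraries, with 87 without anti-CD115 replicate 4. They numbered 353 with no low-count filter and 66 with unfiltered FPKM, each of 32025 tested, and the cause of these shifts was not tested. The summed FPKM changed by -9.65% as TPM and by -19.4% to -13.4% without single libraries.

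Same-numbered libraries of the groups share a number and, for replicate 1, the female sex: their deviations from group means correlated at 0.34, -0.06, 0.04 and 0.23, and 2 of 4 anti-CD115 libraries correlated best with their own number. With a replicate block 114 genes fell, and of the 10 members only Ctsh lost its call (45.8%). Gzma had at most 33 counts in any library and Ctsk 92 to 244, and the untested genes did not pass the filter on low counts. The part of depth in the spread of Gzma and Ctsk was not tested.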
